A study of Danio rerio with 2 samples.

Results

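Hox genes were followed as a record of axial position in cells sorted from the trunks of zebrafish embryos. The members are the 48 genes of the filtered count data, out of 22077, whose symbol is hoxa, hoxb, hoxc or hoxd followed by a paralog group number. They belong to 13 paralog groups and 7 clusters (hoxaa, hoxab, hoxba, hoxbb, hoxca, hoxcb and hoxda). All 48 had at least 1 unique molecular identifier (UMI, a tag that counts each captured transcript once), and together they held 252409 UMIs.

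Hox genes encode homeodomain transcription factors that lie in chromosomal clusters. Genes of low paralog group number sit towards one end of a cluster and are expressed from the hindbrain backwards, and genes of high number begin nearer the tail, so that the set of Hox genes a cell expresses reflects the body level from which it came. Neural crest cells, which give rise to pigment cells, glia and the neurons of the gut, keep much of this code while they migrate. In zebrafish the crest that colonises the gut arises mainly next to the hindbrain and the first somites. Posterior Hox genes are also used a second time, in the outgrowth of fins and limbs.

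Both libraries were made from Tg(crestin:mCherry;mitfa:GFP) embryos at 72 hpf, 8 h after washout of MoTP, a compound that kills differentiating melanocytes and was given from 24 hpf until 64 hpf. The control embryos received MoTP with the solvent DMSO, and the treated embryos MoTP with CVT-10216, an inhibitor of the aldehyde dehydrogenase Aldh2. DMSO and CVT-10216 were also given from 24 hpf. Trunks of pooled embryos were dissected, and cells positive for mCherry (crestin, expressed in neural crest), GFP (mitfa, a regulator of pigment cells) or both were sorted together, so that the cells of an embryo cannot be told apart. There was 1 library per condition. No difference between the libraries therefore has a replicate check, no p-value is given, and the 95% intervals (Poisson limits for counts and Clopper-Pearson limits for percentages, both exact) cover counting error only.

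The filtered cells numbered 4488 in the DMSO library, with a median of 8581 UMIs, and 6795 in the CVT-10216 library, with a median of 9487 UMIs. Hox genes made up 2010 and 1550 CPM (UMIs per 1e6 UMIs of the same cells) in these libraries. The libraries shared 4 cell barcodes. Cells expressing mpeg1.1, a macrophage gene, were chosen as the background, as cells that do not come from the crest. That origin does not by itself mean an absence of Hox transcript, and whether these cells express Hox genes was not tested. The 77 DMSO cells of this kind held 11 Hox UMIs (13.1 CPM) and the 108 CVT-10216 cells held 64 (43.1 CPM), of which 29 came from 2 cells. A summed list of 5 muscle genes, a measure of RNA from other cells, was also higher in the CVT-10216 library in 9 of the 10 sets of cells. It was, for example, 25.0 CPM against 106 CPM in the cells with sox10 and phox2bb, and 570.8 CPM against 235 CPM in the and2 cells, which made the exception and where 1 DMSO cell held 409 of 471 such UMIs. The part that RNA from other cells played in the values below was not tested.

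Cells were gated on genes that are not Hox genes, and 9 gates took in 3042 DMSO and 5014 CVT-10216 cells. The pigment gates were dct (an enzyme of melanin synthesis), gch2 (an enzyme of pteridine synthesis in xanthophores), pnp4a (a purine enzyme of iridophores and their precursors) and mitfa with tfec (regulators of pigment cell precursors). The gates of the neural lineages were sox10 with phox2bb (regulators of enteric crest), vip with galn (neuropeptides of gut neurons), fabp7a (a fatty acid binding protein of glia) and slc6a5 (the glycine transporter of inhibitory neurons). The gate and2 (actinodin, a protein of the fin fold fibres) took in cells of the fins. Each of 6 marker genes listed per gate was compared with the pooled cells of all other gates, not with each gate. All 6 were at least 2-fold over that pool in both libraries in the dct, gch2, pnp4a, vip with galn and slc6a5 cells. A single other gate could still be higher. In DMSO elavl3 was at 1094 CPM in vip with galn cells and at 3257 CPM in slc6a5 cells. In the cells with sox10 and phox2bb, foxd3 fell short in both libraries and elavl3 in DMSO. Fabp7a cells fell short for foxd3 and sox10, and and2 cells for hand2, in both libraries, and the mpeg1.1 cells for cd74a. The mitfa with tfec gate reached 4 markers in DMSO and 3 in CVT-10216, and its 18 DMSO cells are given by their counts. Among its markers dct fell short in both libraries. Cells passing the dct gate had been taken out first, so that shortfall was largely set by the gating. Fabp7a cells that passed the sox10 with phox2bb gate had likewise gone to that gate, which in part set their shortfall for sox10.

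Hox expression separated the gates both in level and in the paralog groups used. Values below are for the DMSO library first and the CVT-10216 library second. Slc6a5 cells had the most Hox transcript, at 9616 and 8464 CPM, followed by the vip with galn cells at 3016 and 2825 CPM and the cells with sox10 and phox2bb at 2329 and 2446 CPM. Fabp7a cells (1997 and 2171 CPM) and and2 cells (1995 and 1406 CPM) came next. All 3 pigment gates with enough cells were lower, with 826.5 and 616 CPM in dct cells, 613 and 572.5 CPM in gch2 cells and 362 and 335 CPM in pnp4a cells. The 95% intervals of vip with galn, sox10 with phox2bb and the gates below them were separate in DMSO, except for fabp7a and and2 cells, which did not differ beyond counting error (1938 to 2058 against 1900 to 2094 CPM).

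**Figure D1:**
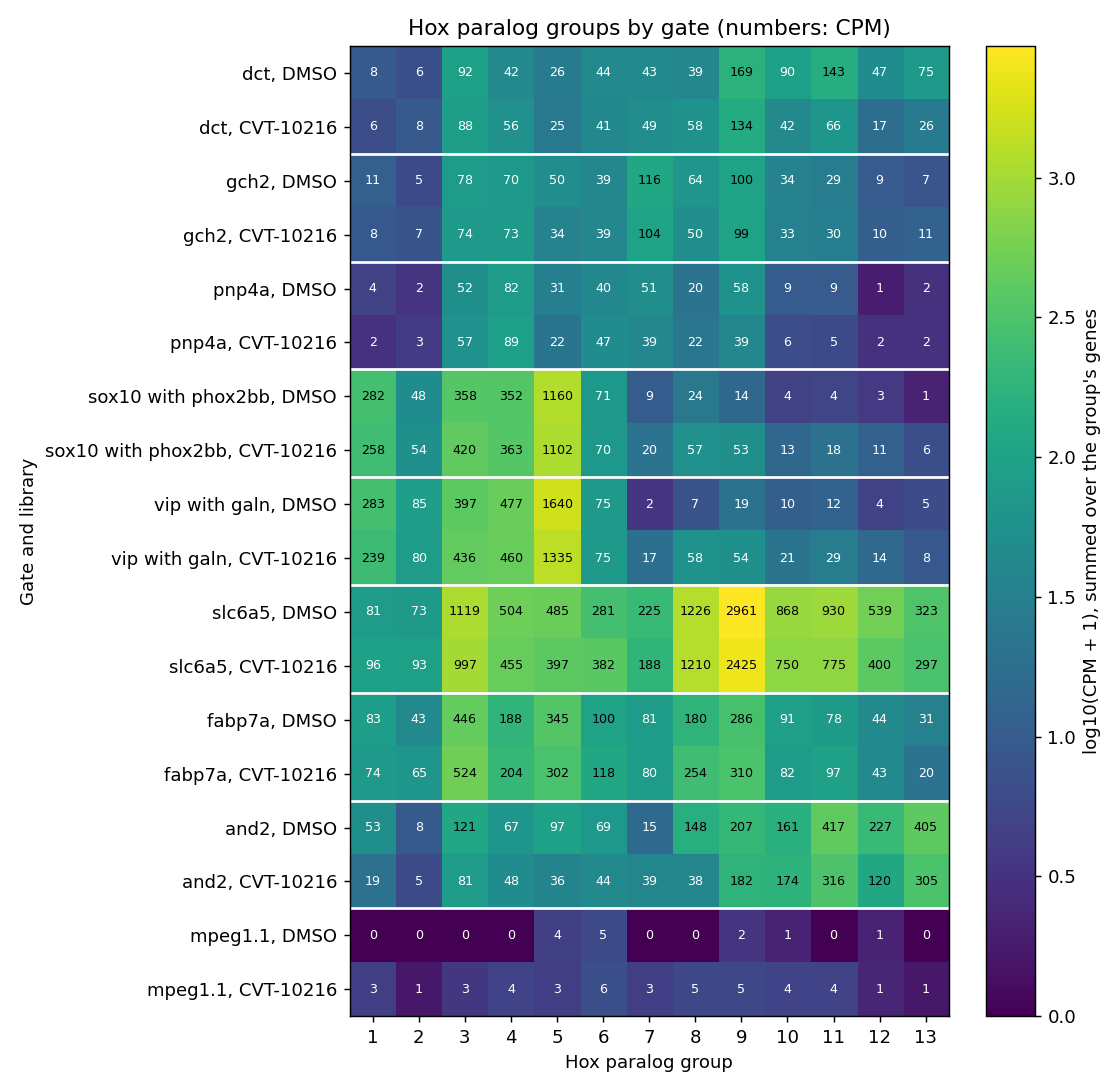
Heat map of the summed CPM of each Hox paralog group (x axis, 1 to 13) in 8 gates and in the mpeg1.1 background cells, 1 row per library; colour is log10(CPM + 1) and the printed numbers are CPM. Groups 3 to 5 were high in the cells with sox10 and phox2bb (1160 CPM for group 5 in DMSO), group 9 in slc6a5 cells (2961 CPM), and groups 11 and 13 in and2 cells (417 and 405 CPM).

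The share of Hox UMIs that came from paralog groups 9 to 13, here called posterior, ranged from 1.097% to 78.0% between gates. It was highest in and2 cells, at 71.0% (68.8 to 73.2) in DMSO and 78.0% (76.1 to 79.8) in CVT-10216. The order of the libraries there turned in thinned cells (85.5% and 81.9%) and with cells weighted equally (85.2% and 81.0%), and 2 cells held 372 of the 1646 DMSO Hox UMIs. With the 2 cells of most Hox UMIs left out of each library the shares were 84.9% and 77.6%. Dct cells had 63.6% (61.4 to 65.8) and 46.3% (43.6 to 48.9), and slc6a5 cells 58.5% (57.3 to 59.6) and 54.9% (54.0 to 55.8). Gch2 cells had 29.2% (27.5 to 31.0) and 32.2% (31.1 to 33.3), fabp7a cells 26.5% (25.2 to 27.9) and 25.4% (24.4 to 26.4), and pnp4a cells 21.9% (20.4 to 23.4) and 16.1% (15.3 to 16.9). The enteric gates were at the other end, with 1.097% (1.01 to 1.19) and 4.15% (3.95 to 4.35) in cells with sox10 and phox2bb, and 1.67% (1.33 to 2.06) and 4.46% (4.08 to 4.87) in vip with galn cells. Gch2 and fabp7a cells were neighbours whose DMSO intervals overlapped. The enteric gates did not overlap in DMSO, but overlapped in CVT-10216. The mitfa with tfec cells held 26 posterior UMIs of 154 Hox UMIs in 18 DMSO cells and 83 of 301 in 32 CVT-10216 cells.

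**Figure D2:**
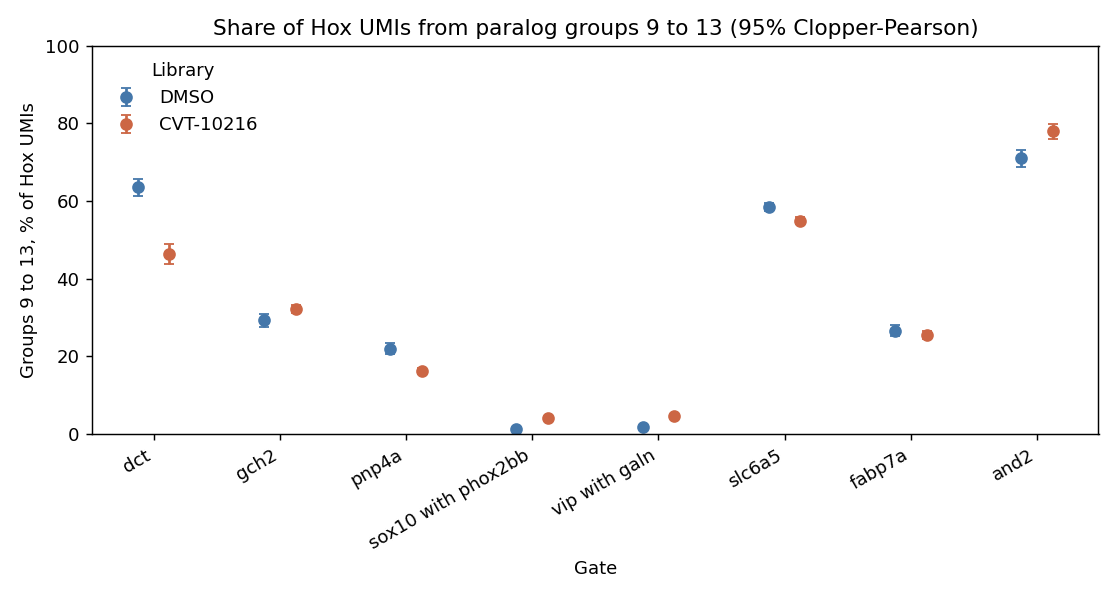
Share of Hox UMIs from paralog groups 9 to 13 (y axis, percent) in each gate (x axis), with exact 95% Clopper-Pearson intervals; blue points are the DMSO library and orange points the CVT-10216 library. Dct cells lay at 63.6% in DMSO and 46.3% in CVT-10216, and cells with sox10 and phox2bb at 1.097% and 4.15%.

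A gene or a paralog group was called above background where it had at least 10 UMIs and its interval lay above that of the mpeg1.1 cells of its library. Those cells held 13.1 CPM of Hox transcript in DMSO and 43.1 CPM in CVT-10216, so the limit differed between the libraries. A pass in DMSO but not in CVT-10216, or the reverse, is therefore not by itself a difference in expression. Hoxb1a, which patterns the zebrafish hindbrain, was the only gene above background in no gate of either library, and it had the fewest UMIs, 46 over all cells. Hoxa1a was above background in no DMSO gate. In DMSO, 5 genes were above background in all 8 gates other than mitfa with tfec (hoxa4a, hoxb3a, hoxb5a, hoxc3a and hoxd3a), and all of them are of groups 3 to 5. The count was 10 in CVT-10216. The share of all genes above background in all 8 gates was not computed, so neither count is read as particular to Hox genes. Slc6a5 cells used the widest set, with 43 of 48 genes above background in DMSO and 46 in CVT-10216, where 16.9% and 22.3% of all 22077 genes passed the same call. In DMSO the narrowest of these 8 was vip with galn, with 16 genes, where 14.5% of all genes passed, and in CVT-10216 it was pnp4a, with 14, where 14.4% passed. Of the 48 genes, 15 overlap another Hox gene in the RefSeq annotation of the assembly GRCz12tu, among them hoxb3a with its neighbours hoxb4a, hoxb5a and hoxb6a, hoxb1b with hoxb5b and hoxb6b, and hoxc3a with 5 genes of its cluster. The annotation used for counting was another one, and counts of these overlapping genes may have been divided between them, so their single values are uncertain. These overlaps join genes of different paralog groups, so the sums of the groups concerned are uncertain as well. Hoxb3a, hoxb5a, hoxc3a and hoxd3a, named above as above background in all 8 gates, are among the overlapping genes.

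Among the pigment gates, dct cells had the highest posterior share and pnp4a cells the lowest of the 3 gates with enough cells. In DMSO dct cells, group 9 had 169 CPM (153 to 187) and group 11 had 143 CPM (128 to 159.5), and groups 10, 12 and 13 had 90.4, 47.4 and 75.1 CPM. The leading genes there were hoxa11b, with 59.3 and 33.7 CPM, hoxb9a, with 55.7 and 60.9 CPM, and hoxd9a, with 54.4 and 28.9 CPM. Hoxa11b belongs to a group known for its role in limbs and fins, and hoxb9a and hoxd9a to a group of the trunk. In gch2 cells group 7 was highest, at 116 and 104 CPM, which is a single gene, hoxb7a. Hoxb8a, at 42.2 and 29.1 CPM, and hoxb9a, at 41.3 and 43.2 CPM, followed it. The posterior groups 12 and 13 were at 9.07 and 7.25 CPM in DMSO gch2 cells, against 47.4 and 75.1 CPM in DMSO dct cells. Group 12 was not above background in those gch2 cells. In pnp4a cells group 4 was highest, at 82.4 and 89.2 CPM, and the leading genes were hoxb7a (51.0 and 39.1 CPM), hoxd4a (43.4 and 53.8 CPM) and hoxa4a (38.1 and 34.6 CPM). Groups 1, 2, 12 and 13 were not above background in pnp4a cells in either library, and groups 10 and 11 were not in CVT-10216.

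**Figure D3:**
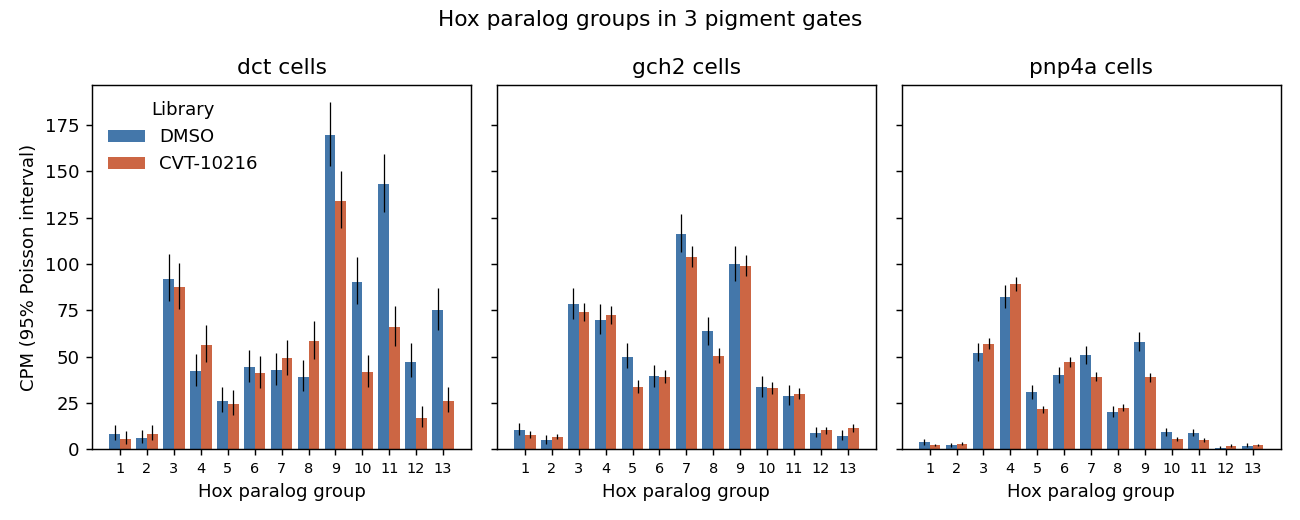
CPM of Hox paralog groups 1 to 13 (x axis) in dct, gch2 and pnp4a cells, with bars from 0 and exact 95% Poisson intervals; blue bars are the DMSO library and orange bars the CVT-10216 library. In dct cells group 13 was at 75.1 CPM in DMSO and 26.3 CPM in CVT-10216, while group 4 in pnp4a cells was at 82.4 and 89.2 CPM.

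The mitfa with tfec cells held Hox UMIs mostly of groups 3 to 9. Hoxb7a had 21 UMIs in 18 DMSO cells and 44 in 32 CVT-10216 cells, hoxb8a 16 and 32, and hoxb6a 16 and 21. Of the 48 Hox genes, 5 were above background there in DMSO and 10 in CVT-10216, at a total of 154 and 301 Hox UMIs. Of all genes, 3.51% passed in DMSO and 8.09% in CVT-10216. In both libraries 5 Hox genes passed, and the matching share of all genes was not computed.

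The enteric gates drew mostly on groups 1, 3, 4 and 5. In cells with sox10 and phox2bb, group 5 held 1160 and 1102 CPM, group 3 held 358 and 420 CPM, group 4 held 352 and 363 CPM, and group 1 held 282 and 258 CPM. In DMSO hoxb1b, which overlaps hoxb5b in the RefSeq annotation, gave 4026 of the 6700 UMIs of group 1. The division of UMIs between groups 1 and 5 is therefore uncertain. Group 2 was at 47.9 and 54.5 CPM and group 6 at 70.9 and 69.8 CPM. Groups 7, 8 and 9 were lower than these in DMSO, at 9.18, 23.8 and 13.6 CPM, but in CVT-10216 groups 8 and 9, at 56.7 and 52.7 CPM, lay near group 2. In vip with galn cells groups 8 and 9 stood at 6.66 and 19.4 CPM in DMSO and at 57.6 and 54.2 CPM in CVT-10216, against 85.4 and 79.9 CPM for group 2. Hoxb5b was the leading gene at 796 and 782 CPM, with UMIs in 89.7% and 81.4% of thinned cells and 93.8% and 86.3% of unthinned ones, against 1.41% and 0% of thinned mpeg1.1 cells. Hoxb5a had 281 and 230 CPM, and hoxb3a 246 and 294 CPM. In mouse, Hoxb5 acts in the crest cells that colonise the gut. Vip with galn cells had the same leading genes, with hoxb5b at 864 and 874 CPM, hoxb5a at 558 and 281 CPM and hoxb3a at 269.5 and 285 CPM.

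Slc6a5 cells and and2 cells were the posterior gates outside the pigment lineage, but their profiles differed in shape. In slc6a5 cells group 9 was highest, at 2961 and 2425 CPM, with groups 8 (1226 and 1210 CPM) and 3 (1119 and 997 CPM) after it, and all 13 groups were above background in both libraries. Hoxb9a, at 1540 and 1256 CPM, was the leading gene, followed by hoxb8a, at 975.5 and 902 CPM, and hoxb3a, at 493 and 438 CPM. In and2 cells groups 11 (417 and 316 CPM) and 13 (405 and 305 CPM) were highest. The leading genes were hoxa11b at 287 and 193 CPM, hoxa13b at 248 and 161.5 CPM and hoxd12a at 205 and 109 CPM. In zebrafish, hoxa13 and hoxd13 genes are required for the fin rays.

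The and2 gate held cells of more than 1 kind. The summed epithelial markers epcam, cldnb and krt4 were at 13880 and 21250 CPM there, and at most 200.4 CPM in the other gates. A split on epcam, an adhesion protein of epithelia, was chosen after these values were seen. Cells without a UMI of epcam (37 and 51) had 3606 and 3360 CPM of Hox transcript, of which 74.2% and 85.8% was posterior. Cells with at least 2 epcam UMIs (29 and 53) had 554 and 575 CPM, of which 51.7% and 58.5% was posterior. The fin mesenchyme gene prrx1a was at 398 and 394 CPM in the cells without epcam and at 0 and 4.24 CPM in those with at least 2 epcam UMIs. The collagen gene col1a2 went the other way, at 263 and 197 CPM in the cells without epcam and at 1619 and 4149 CPM in those with it. In the cells without epcam, hoxa13b was at 519 CPM in DMSO and at 518.5 CPM in CVT-10216, and hoxa11b at 591 and 581 CPM.

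In fabp7a cells group 3 was highest, at 446 and 524 CPM, followed by group 5 at 345 and 302 CPM and group 9 at 286 and 309.5 CPM, and the intervals of the latter pair overlapped in CVT-10216. Their leading genes were hoxb3a (316 and 383 CPM), hoxb5b (211 and 192 CPM) and hoxb8a (153 and 195 CPM). These cells were mixed as well. Those with at least 2 UMIs of sox10, a regulator of crest glia, numbered 102 and 181, and 18.6% and 21.7% of their Hox UMIs was posterior. Those with no sox10 UMI numbered 138 and 165, with 40.0% and 32.6% posterior. The cells without sox10 held more gfap, a glial gene of the neural tube, at 2063 and 2098 CPM against 48.3 and 175 CPM. They also held more of the neuronal gene elavl3 (1227 and 1647 CPM against 271 and 742 CPM) and of hand2 (323 and 377 CPM against 27.8 and 33.2 CPM) and phox2a (129 and 215 CPM against 7.32 and 3.02 CPM), regulators of autonomic neurons. This split was also chosen after the profile of the gate was seen. Fabp7a cells with at least 2 UMIs each of sox10 and phox2bb had already gone to the gate of those genes. The part with sox10 lacked them, so its phox2a, hand2 and Hox values were in part set by the gating.

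The clusters were used unequally. They also differ in size, from 4 genes to the 11 of hoxba and of hoxca, and the shares were not scaled for this. The hoxba cluster held the largest share of Hox UMIs in gch2 cells (47.4% and 46.0%), fabp7a cells (46.0% and 45.9%), pnp4a cells (41.7% and 41.6%) and slc6a5 cells (40.4% and 39.6%). The hoxbb cluster, of 4 genes including hoxb5b, held 43.3% and 39.6% in cells with sox10 and phox2bb, and 35.3% and 37.0% in vip with galn cells, and between 2.17% and 14.6% in the dct, gch2, pnp4a, slc6a5, fabp7a and and2 cells. In and2 cells hoxab, which includes hoxa11b and hoxa13b, held 35.4% and 32.5%. Dct cells drew most on hoxda in DMSO (26.4%) and on hoxba in CVT-10216 (31.9%). Of the few Hox UMIs of the mitfa with tfec cells, hoxba held 79 of 154 and 152 of 301.

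Shares of cells were compared after each cell with at least 4000 UMIs was thinned to 4000. Cells below that depth were left out, 1073 (23.9%) in DMSO and 1338 (19.7%) in CVT-10216. Values in thinned cells therefore describe the deeper cells of a gate, such as 54 of 142 DMSO slc6a5 cells. A posterior UMI was then found in 66.0% (58.9 to 72.6) of 197 DMSO dct cells and 47.6% (39.9 to 55.5) of 168 CVT-10216 dct cells, and in 73.7% and 60.3% of unthinned cells. The background was 2.82% of 71 DMSO and 2.88% of 104 CVT-10216 mpeg1.1 cells (5.19% and 10.2% unthinned), whose median depths were 11160 and 12910 UMIs against 5923 and 7849 UMIs in dct cells. In cells with sox10 and phox2bb, the shares were 5.03% (3.60 to 6.81) and 16.2% (13.1 to 19.8), or 18.2% and 38.4% unthinned, at median depths of 23120 and 24570 UMIs. The DMSO share there overlapped the background interval (0.343 to 9.81), so that it cannot be told from background at this depth. Posterior UMIs were gathered in few of these cells, and the tenth of cells with the most held 89.3% and 82.2% of them. The vip with galn cells were alike, at 81.9% and 73.0%. The values were 61.2% to 72.5% in gch2, pnp4a and fabp7a cells, 43.4% and 44.7% in dct cells, and 25.4% to 30.4% in slc6a5 and and2 cells. The number of posterior UMIs per cell also differed, with 607 in 793 DMSO cells with sox10 and phox2bb and 1197 in 281 DMSO dct cells.

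Posterior genes were also counted by whether a cell expressed more anterior ones, and the difference between gates in this respect has no test. Of thinned DMSO fabp7a cells, 38.7% (29.4 to 48.6) of those with a UMI of groups 5 to 8 had a posterior UMI, against 9.64% (4.25 to 18.1) of those without. The same shares were 49.4% (41.3 to 57.4) and 13.7% (8.57 to 20.4) in CVT-10216. In pnp4a cells they were 30.8% (25.0 to 37.1) and 16.4% (12.6 to 20.7) in DMSO, and the intervals overlapped in CVT-10216 (13.5 to 19.4 and 10.5 to 14.7). In gch2 cells they overlapped in DMSO (27.7 to 39.9 and 23.0 to 34.9) and were 39.2% (35.2 to 43.3) and 24.8% (21.5 to 28.4) in CVT-10216. In dct cells they were 67.2% (54.6 to 78.2) and 65.4% (56.5 to 73.5) in DMSO and 50% (38.3 to 61.7) and 45.7% (35.2 to 56.4) in CVT-10216. Set against groups 1 to 4 instead, the dct shares were 65.3% and 66.4% in DMSO, and 59.0% (47.3 to 70.0) and 37.8% (27.8 to 48.6) in CVT-10216.

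The libraries were then compared within each gate, to ask how Hox profiles differed with the Aldh2 inhibitor. Treatment with it began at 24 hpf, before the washout of MoTP at 64 hpf, so it covered development as well as regeneration. A gene with at least 50 UMIs over both libraries was called where its CPM differed at least 2-fold and the Poisson intervals were separate. Log2 ratios are CVT-10216 over DMSO with 0.5 UMIs added to each count. Where the cells or limits were changed, only Hox genes were called, so those counts have no share of all genes beside them.

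In dct cells Hox genes of groups 10 to 13 were lower in CVT-10216. Of 26 Hox genes tested, 8 were called lower and 0 higher, where 0.493% of all 6493 genes tested were called lower and 0.909% higher. Posterior genes summed to 525 CPM in DMSO and 285 CPM in CVT-10216, a log2 ratio of −0.88 (−1.02 to −0.74). Groups 1 to 4 stood at 149 and 158 CPM, 0.09 (−0.13 to 0.31), and groups 5 to 8 at 152 and 173 CPM, 0.18 (−0.03 to 0.40). The ratio was −0.34 (−0.56 to −0.12) for group 9, −1.12 for group 10, −1.11 for group 11, −1.46 for group 12 and −1.51 (−1.96 to −1.08) for group 13. The 8 genes called were hoxc13a (18.9 and 4.38 CPM, −2.05), hoxd11a (19.8 and 5.25, −1.87), hoxd10a (39.5 and 12.7, −1.62), hoxd12a (29.4 and 9.63, −1.59), hoxd13a (28.1 and 10.1, −1.46), hoxc11b (34.7 and 14.4, −1.25), hoxc10a (28.5 and 12.3, −1.20) and hoxc13b (22.4 and 9.63, −1.20). All 8 belong to the hoxc and hoxd clusters and to groups 10 to 13, which are the genes of the tail end of the axis. Few genes of other clusters could be called in these groups. Only hoxa11b (59.3 and 33.7 CPM, −0.81, −1.24 to −0.40) and hoxa10b (15.4 and 12.3 CPM, −0.32, −1.10 to 0.43) had enough UMIs. Hoxb9a, in contrast, stood at 55.7 and 60.9 CPM (0.13, −0.23 to 0.49), and hoxb8a had the highest ratio (12.7 and 24.5 CPM, 0.93) and was not called. The median ratio was −0.45 over the Hox genes and −0.0035 over all genes tested. The summed muscle genes were at 77.7 and 300.4 CPM in dct cells, and their part in the difference was not tested. One CVT-10216 dct cell held 9672 of the 9707 globin UMIs of that set, and with the 2 cells of most Hox UMIs left out of each library 7 genes were called lower. In cells thinned to 4000 UMIs the posterior ratio was −0.60 and no Hox gene was called, on fewer cells and fewer UMIs.

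Pnp4a cells also had a lower posterior level in CVT-10216, at 79.2 and 53.9 CPM (−0.56, −0.69 to −0.42), but the direction turned in the cells without fhl2b. With cells kept in every gate they passed the ratio was −0.23. Of 25 Hox genes tested, 6 were called lower and 0 higher, where 1.32% and 1.58% of 10980 genes were called lower and higher. The 6 were hoxd9a (10.4 and 4.10 CPM, −1.35), hoxd10a (3.40 and 1.34, −1.34), hoxa11b (6.68 and 2.68, −1.32), hoxc9a (6.09 and 2.72, −1.17), hoxb5b (13.9 and 6.31, −1.15) and hoxa9b (7.50 and 3.59, −1.07). None of the 6 was above background in CVT-10216, and 5 were in DMSO. Thinned cells left 0 genes called lower, and cells kept in every gate they passed left 2. Hoxb2a had the highest ratio (1.76 and 2.45 CPM, 0.44), and the median ratio was −0.24 over the Hox genes and 0.02 over all genes. The gate was then split on fhl2b, an iridophore gene, after these values were seen. Cells with at least 2 fhl2b UMIs were 22.3% of the gate in DMSO and 8.00% in CVT-10216, and 38.3% and 33.1% of their Hox UMIs was posterior. Cells with none had 11.8% and 13.5% posterior. Posterior CPM was 190 and 146 in the former (−0.38, −0.59 to −0.17) and 36.7 and 43.6 in the latter (0.25, 0.04 to 0.47), where 0 Hox genes were called in either direction.

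Gch2 cells had 0 Hox genes called in either direction among 31 tested, where 2.8% of 10280 genes were called higher and 1.16% lower. Posterior genes stood at 179 and 184 CPM (0.04, −0.08 to 0.16). The lowest ratio was that of hoxb5a, at 25.6 and 15.4 CPM (−0.73), and the highest that of hoxc6b, at 6.12 and 8.84 CPM (0.51). The median ratio was 0.0035 over the Hox genes and 0.06 over all genes. With the gate limits halved 7 were called lower and the posterior ratio was −0.35, and in thinned cells 2 were called lower at a ratio of 0.28. The share of all genes called under these settings was not computed. The difference between the dct and gch2 ratios has no test, because each rests on 1 library per condition.

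Cells with sox10 and phox2bb differed in the opposite direction. Of 37 Hox genes tested, 19 were called higher in CVT-10216 and 0 lower, where 7.2% of 12197 genes were called higher and 0.172% lower. Posterior genes stood at 25.6 and 101 CPM, a log2 ratio of 1.99 (1.85 to 2.13), and groups 7 and 8 at ratios of 1.12 (0.87 to 1.38) and 1.25 (1.099 to 1.41). Group 5, the group with the most transcript, stood at 1160 and 1102 CPM (−0.07). Of the 19 genes, 15 were of groups 9 to 13, with CPM between 0.463 and 8.04 in DMSO and between 2.58 and 29.5 in CVT-10216. They included hoxc11a (0.59 and 3.80 CPM, 2.65), hoxc13a (0.463 and 2.77, 2.53), hoxa9a (1.31 and 6.96, 2.40), hoxa9b (1.39 and 7.28, 2.38) and hoxb9a (8.04 and 29.5, 1.87). The others of these groups were hoxc10a, hoxd11a, hoxc12b, hoxd12a, hoxb10a, hoxa11b, hoxd9a, hoxa10b, hoxc9a and hoxd10a. Of groups 7 and 8, hoxc8a (1.43 and 6.38 CPM, 2.14), hoxb8a (20.2 and 47.9 CPM, 1.25) and hoxb7a (9.18 and 19.98, 1.12) were called, as was hoxa2b, which sets the identity of the second pharyngeal arch in zebrafish (0.842 and 2.84, 1.73). Of the 19 genes, 17 were not above background in DMSO and 10 not in CVT-10216, so that the size of their ratios is uncertain. Groups 10 to 13 were not above background in DMSO either. Hoxb4a had the lowest ratio (12.6 and 8.70 CPM, −0.54), and the median ratio was 1.12 over the Hox genes and 0.10 over all genes.

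Several other values moved with this difference, and their part in it was not tested. The background mpeg1.1 cells had 4.77 and 14.8 CPM of posterior Hox transcript, from 4 and 22 UMIs. Of the 22 in CVT-10216, 11 came from 1 cell. The neuronal gene elavl3 was at 375 and 652 CPM in the cells with sox10 and phox2bb. After these values were seen the gate was split on elavl3. Cells without it had 8.74 and 20.3 CPM of posterior transcript, a ratio of 1.21 (0.67 to 1.76), and cells with at least 5 UMIs had 40.3 and 144 CPM, a ratio of 1.84 (1.69 to 1.99). The latter were 36.6% of the gate in DMSO and 49.6% in CVT-10216. Among cells without elavl3, 1 Hox gene was called higher, on fewer UMIs. With the deepest 5% of cells left out 11 were called, and in thinned cells 2.

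Vip with galn cells showed the same direction on fewer cells (53 and 106). Posterior genes stood at 50.3 and 126 CPM (1.32, 0.99 to 1.68), and 4 of 21 Hox genes tested were called higher and 0 lower, where 1.64% and 0.452% of 7737 genes were called. They were hoxc8a (1 and 52 UMIs, 3.92 with an interval of 1.95 to 9.82), hoxb8a (8 and 164 UMIs, 3.07), hoxb9a (5 and 96 UMIs, 2.92) and hoxb7a (4 and 66 UMIs, 2.68). All 4 were above background in CVT-10216 and none in DMSO. Hoxb5a had the lowest ratio, at 558 and 281 CPM (−0.99, −1.12 to −0.86), just short of the 2-fold limit, while hoxb5b stood at 864 and 874 CPM. Over the Hox genes the median ratio was 0.07, and over all genes −0.01. The summed muscle genes were at 23.0 and 277 CPM in these cells, and 1 CVT-10216 cell held 787 of the 1059 muscle UMIs, whose part in the difference was not tested. Of the 83 DMSO posterior UMIs, 30 came from 1 cell, and of the 481 in CVT-10216, 69 came from 1 cell. The posterior ratio was 0.19 in thinned cells, where 0 genes were called higher. With cells weighted equally that ratio also fell below the interval given above.

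**Figure D4:**
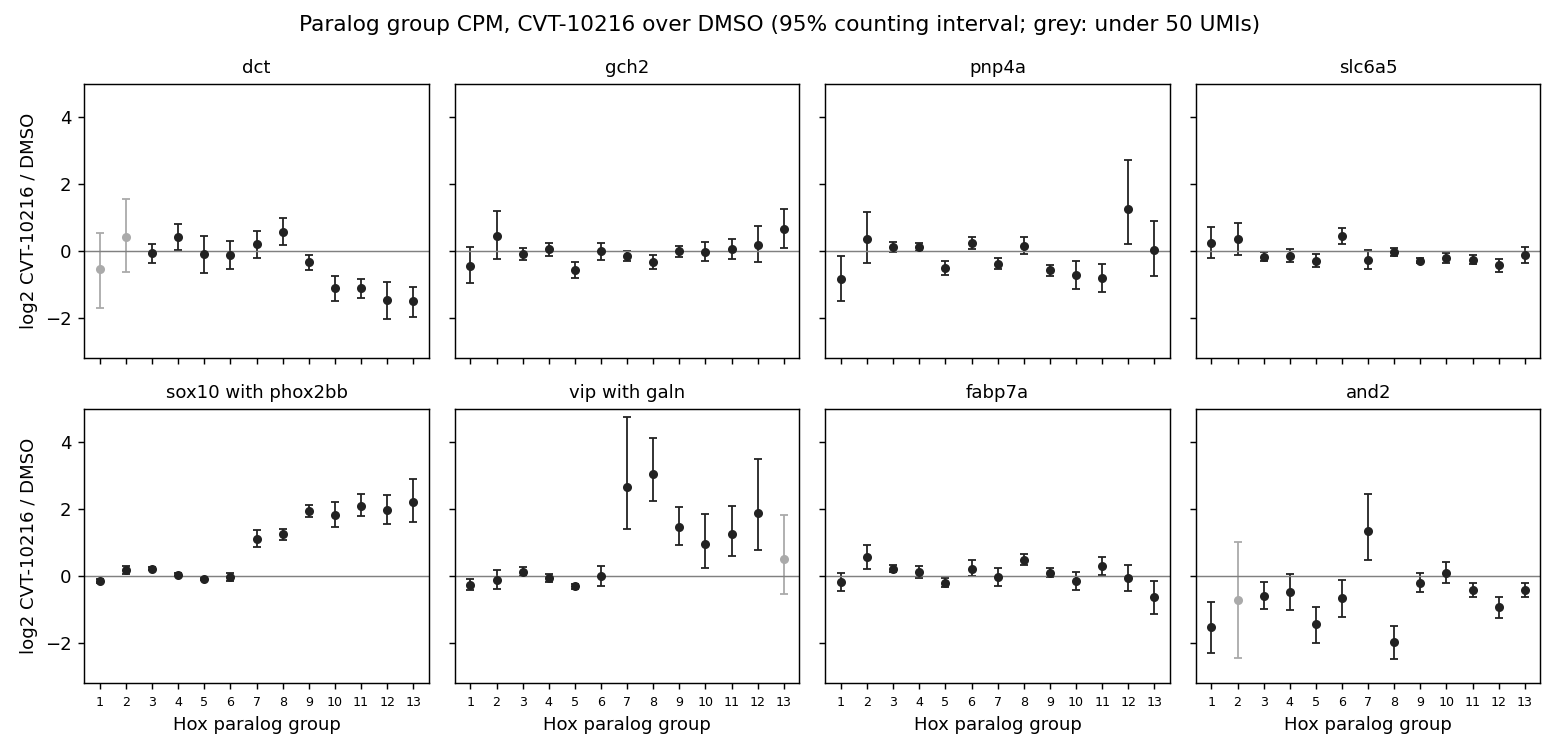
Log2 ratio of CVT-10216 over DMSO CPM (y axis) for Hox paralog groups 1 to 13 (x axis) in 8 gates, with exact 95% counting intervals; grey points had under 50 UMIs over both libraries. Groups 10 to 13 lay below 0 in dct cells (−1.51 for group 13), and groups 7 to 13 lay above 0 in cells with sox10 and phox2bb (2.23 for group 13), where groups 10 to 13 were not above background in DMSO.

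Slc6a5, fabp7a and and2 cells differed less, or in mixed directions. Among 40 Hox genes tested in slc6a5 cells none was called, where 3.1% of 5259 genes were called higher and 1.08% lower, and posterior genes stood at 5622 and 4646 CPM (−0.28, −0.33 to −0.22). That ratio was −0.0641 with cells kept in every gate they passed and −0.41 with the gate limits halved or doubled, where 1 gene was called higher and 1 lower, and 2 higher and 0 lower. The ratios there ran from −0.76 for hoxa5a (76.9 and 45.3 CPM) to 0.94 for hoxb6b (67.6 and 130 CPM), with a median of −0.18 against −0.01 over all genes. In fabp7a cells 1 of 36 was called higher, hoxc8a (22.8 and 52.0 CPM, 1.18), and 0 lower, where 3.33% and 1.01% of 8556 genes were called higher and lower. The lowest there was hoxb1b (49.3 and 28.8 CPM, −0.78), and the median was 0.12 against 0.07 over all genes. Posterior genes stood at 530 and 551 CPM (0.05, −0.05 to 0.16) in fabp7a cells. With the gate limits doubled the posterior ratio in fabp7a cells was 0.70 and 4 genes were called higher, and in the cells without sox10 5 were.

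In and2 cells 3 of 23 Hox genes were called higher and 4 lower, where 3.32% and 3.61% of 3852 genes were called. The genes called higher were hoxc13a (6.06 and 38.7 CPM, 2.55), hoxb7a (14.5 and 38.7, 1.37) and hoxb9a (19.4 and 46.1, 1.22). Those called lower were hoxb5b (48.5 and 9.67, −2.29), hoxc8a (78.8 and 19.4, −2.01), hoxb8a (58.2 and 18.6, −1.63) and hoxd13a (70.3 and 34.2, −1.04). The median ratio was −0.62 over the Hox genes and −0.10 over all genes. In thinned cells 0 genes were called in either direction, and 0 were called lower in the cells without tbx5a and 2 in those without epcam. Posterior genes were lower over the gate, at 1417 and 1097 CPM (−0.37, −0.48 to −0.26). Within the cells without epcam they stood at 2674 and 2884 CPM (0.11, −0.01 to 0.23), and within those with at least 2 epcam UMIs at 286 and 336 CPM (0.23, −0.07 to 0.55), so that the direction over the gate was not that of either part. Cells with at least 2 epcam UMIs were 43.3% of the gate in DMSO and 51.0% in CVT-10216, at median depths of 9697 and 15690 UMIs, against 8279 and 7177 UMIs in the cells without.

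**Figure D5:**
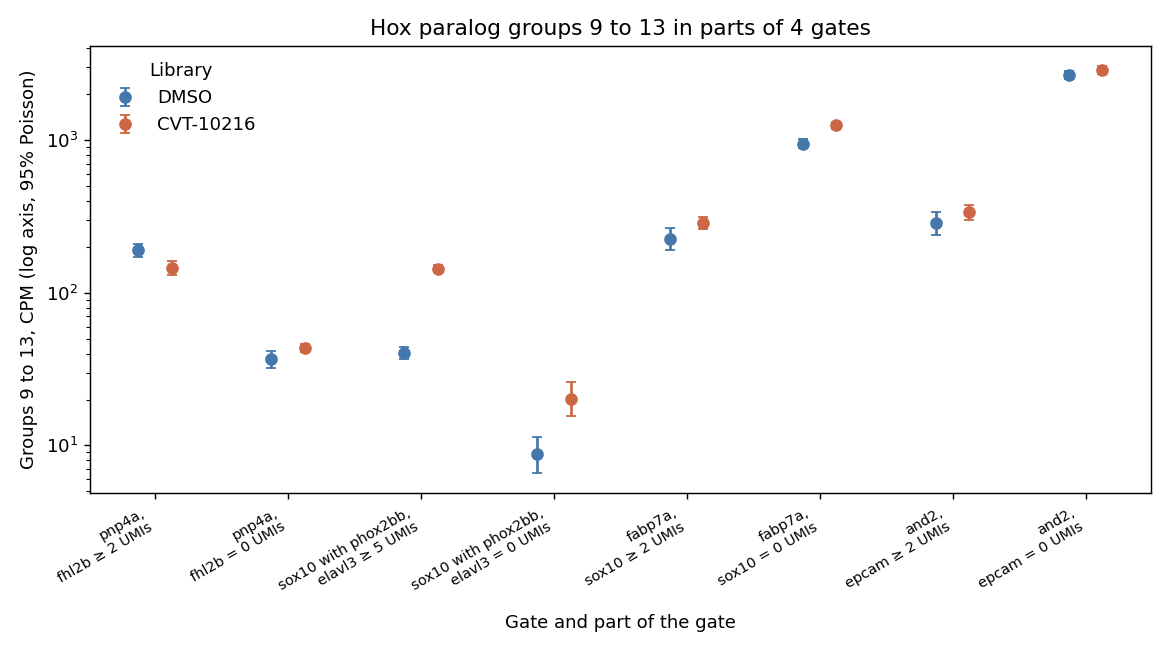
Summed CPM of Hox paralog groups 9 to 13 (y axis, log scale) in parts of 4 gates set by UMIs of 1 other gene per cell (x axis), with exact 95% Poisson intervals; blue is DMSO and orange CVT-10216. In pnp4a cells the parts with and without fhl2b stood at 190 and 36.7 CPM in DMSO, and in and2 cells those without epcam stood at 2674 and 2884 CPM in the 2 libraries.

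Other genes tied to axial position were counted in the same way against the mpeg1.1 cells. TALE homeodomain proteins, which bind DNA together with Hox proteins, were widest in slc6a5 cells, with 10 and 11 of 13 genes above background, where 16.9% and 22.3% of all genes were. Fabp7a cells came close, with 7 and 10 genes (16% and 22.5% of all genes), and and2 cells had 8 and 5 (8.66% and 10.4%). Dct, gch2 and pnp4a cells had between 2 and 5 (9.84% to 14.4%). Meis1b stood at 873 and 829 CPM in vip with galn cells, 782 and 761 CPM in slc6a5 cells and 322 and 416 CPM in cells with sox10 and phox2bb. In the dct, gch2 and pnp4a gates pbx4 was highest, at 110 and 146, 59.9 and 65.3, and 60.6 and 62.6 CPM. Of 6 caudal and even-skipped genes, which act upstream of or beside the posterior Hox genes, evx2 was above background in slc6a5 cells in both libraries (29.2 and 39.05 CPM), and cdx4 there in CVT-10216 only (9.28 and 7.81 CPM). Evx2 was also above background in CVT-10216 fabp7a cells (4.19 and 5.32 CPM), and no gene of that list was so in the other gates.

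Retinoic acid, made by aldh1a2 and broken down by the cyp26 enzymes, sets the anterior limits of Hox expression. Of 8 genes of this system, 4 were above background in both libraries in the enteric gates, among them the receptor rarga (127 and 139 CPM) and cyp26a1 (102 and 74.0 CPM) in cells with sox10 and phox2bb, and cyp26b1 (215 and 244 CPM) in vip with galn cells. Of all genes, 17.5% and 22.4% passed in the former gate and 14.5% and 20.2% in the latter. In the dct, gch2 and pnp4a gates the count was 1 or 2, where 9.84% to 14.4% of all genes passed. It included the receptor raraa in each (32.0 and 29.3, 55.5 and 48.4, and 9.96 and 6.31 CPM). Slc6a5, fabp7a and and2 cells had 5 and 4, 4 and 4, and 6 and 4 of the 8 genes, where 8.66% to 22.5% of all genes passed. Aldh1a2 was at 182 and 23.8 CPM in and2 cells, above background in DMSO only. Of 7 fin and limb genes, 5 and 6 were above background in and2 cells (8.66% and 10.4% of all genes), led by msx1b (474 and 417 CPM) and msx2b (333 and 262 CPM). Gch2 cells had 3 and 3 of them (9.84% and 14.1% of all genes), and the remaining gates at most 2 (3.51% to 22.5%). Of 12 genes of the head, 0 were above background in the dct, gch2, pnp4a, slc6a5 and both enteric gates, where 9.84% to 22.4% of all genes passed. And2 cells had 2 and 2 (8.66% and 10.4% of all genes). Fabp7a cells had 4 and 2 (16% and 22.5% of all genes), led by egr2b (77.7 and 103 CPM), which also acts in myelinating glia.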

How the data were processed

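Cells sorted from trunks of Tg(crestin:mCherry;mitfa:GFP) embryos were sequenced with a 10x 3′ kit, in 1 library per condition. The authors deposited counts of UMIs per gene and cell, for both libraries combined, before and after their filter on cells. The submitters' processing notes name Cell Ranger 2.1.1 and 3.1.0 and the build GRCz11. Whether depth was equalised between the libraries when they were combined is not given in the sources used here. The library of a cell was read from its barcode suffix (1 for DMSO, 2 for CVT-10216), a link that GEO's labels do not state. How doublets were treated is not given in the sources used here, and no doublet caller was run.

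The filtered counts were used as deposited. Gates required at least 3 UMIs and 500 CPM in a cell for dct, gch2, pnp4a, fabp7a and and2, at least 3 UMIs for mpeg1.1, and at least 2 UMIs of each gene for mitfa with tfec, sox10 with phox2bb, vip with galn and slc6a5. A cell that passed several gates of 1 family went to the first in a set order, and cells passing gates of several families were left out. The order was dct, gch2, mitfa with tfec, pnp4a for the pigment family. For the enteric and glial family it was vip with galn, sox10 with phox2bb, fabp7a. UMIs were summed per gate and library. Gene calls (2-fold, separate 95% intervals, 50 summed UMIs) were tested on simulated Poisson counts only, the model that the intervals assume. That test does not cover UMIs gathered in few cells, nor differences between libraries. Named genes were the 3 Hox genes with most CPM per gate in DMSO, all genes called, the highest and lowest ratio per gate, and up to 2 genes per list of other axial genes. The members and lists were chosen with earlier results of these data known, and the splits on fhl2b, epcam, tbx5a, sox10, elavl3 and dbh and the use of vipb after seeing the profiles of the gates. Alternatives covered gate limits, cells, depth, weighting, scaling, pseudocount, posterior groups and call limits. Python 3.11.15, numpy 2.4.6, scipy 1.17.1 and pandas 2.3.3 were used. Gene neighbours came from RefSeq (GRCz12tu), in which all 48 symbols were found. The unfiltered counts served as 1 alternative only.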

Additional observations from a re-analysis of the deposited data

Results flagged for a closer look

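The posterior log2 ratio of CVT-10216 over DMSO differed in direction between gates. It was −0.88 in dct cells, −0.56 in pnp4a cells, −0.37 in and2 cells and −0.28 in slc6a5 cells, and it was 1.99 in cells with sox10 and phox2bb and 1.32 in vip with galn cells. The difference between gates was not tested, because each ratio rests on 1 library per condition. In the pnp4a and and2 gates the direction was the opposite in cells without fhl2b (0.25) and in cells without tbx5a (0.23). And2 cells with at least 1 tbx5a UMI also had a positive ratio (0.25, 0.09 to 0.41). The direction over that gate was thus not that of either part. Pnp4a cells with at least 2 fhl2b UMIs had a negative ratio (−0.38).

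Hox transcript was also found in cells that no comparison used. Cells in no gate, 1234 in DMSO and 1390 in CVT-10216, had 2822 CPM (2790 to 2854) and 2444 CPM (2417 to 2471) of Hox transcript, of which 22.9% and 29.5% was posterior. Cells that passed gates of several families, 135 and 283, had 2446 CPM (2391 to 2502) and 2584 CPM (2543 to 2626), of which 19.9% and 25.9% was posterior. All 4 values lay above those of the mpeg1.1 cells (13.1 and 43.1 CPM).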

How the results depend on the processing

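No paired analysis was possible because there was 1 library per condition. With 1 library each, counting error is the only error that can be given. Differences between the libraries in dissection of the trunks, sorting, cell capture or depth cannot be told apart from the treatment. The body levels that a dissection keeps bear on the posterior share of a pool, and their part was not tested. The depth limits the values as well: gates of 53 to 142 DMSO cells (vip with galn, and2, slc6a5) rest on few cells. Thinning to 4000 UMIs removes most of the UMIs on which genes were called. It also leaves out the cells below that depth, so that both depth and the set of cells change. Over all alternatives, 57 posterior log2 ratios stayed within the counting interval of the value reported, 36 moved outside it and 3 whose interval left out 0 turned direction (and2 without tbx5a and without epcam, pnp4a without fhl2b). Among those not counted as turned, 5 ratios in gch2 and fabp7a cells changed sign from a value whose interval held 0. The alternatives with vipb and those with cells lacking 1 other gene were chosen after seeing the data. Counts of genes called are taken as moved where they differ from the count reported by over 1.5 times or where 1 of the 2 counts is 0, and 22 others differed by less. The values that moved or turned follow, DMSO first where 2 are given, and the cause was not tested beyond what each alternative leaves out.

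Halved gate limits gave Hox CPM of 1327 in and2 (CVT-10216), 2304 and 2387 in fabp7a, 899 and 662 in gch2, 415 and 364 in pnp4a, 8673 and 7434 in slc6a5, 2358 and 2418 in sox10 with phox2bb and 2718 and 2880 in vip with galn. Halved gate limits gave posterior shares of 31.3% and 27.8% in fabp7a, 24.7% and 17.3% in pnp4a, 51.4% in slc6a5 (CVT-10216), 1.24% and 4.48% in sox10 with phox2bb and 1.25% in vip with galn (DMSO). Halved gate limits gave posterior log2 ratios of −0.53 in and2, −0.12 in fabp7a, −0.35 in gch2, −0.70 in pnp4a, −0.41 in slc6a5 and 2.02 in vip with galn. Halved gate limits gave counts of Hox genes called higher of 1 in and2, 3 in fabp7a, 1 in slc6a5 and 7 in vip with galn. Halved gate limits gave counts called lower of 1 in fabp7a, 7 in gch2 and 1 in slc6a5. Doubled gate limits gave Hox CPM of 1686 and 1921 in fabp7a, 545 and 549.8 in gch2 and 8443 and 7200 in slc6a5. Doubled gate limits gave posterior shares of 71.8% in and2 (CVT-10216), 18.7% and 26.7% in fabp7a, 27.0% and 31.0% in gch2, 55.5% and 49.2% in slc6a5, 1.21% and 3.81% in sox10 with phox2bb and 1.25% and 5.24% in vip with galn. Doubled gate limits gave posterior log2 ratios of 0.70 in fabp7a, 0.21 in gch2, −0.41 in slc6a5, 1.74 in sox10 with phox2bb and 2.01 in vip with galn. Doubled gate limits gave counts of Hox genes called higher of 1 in dct, 4 in fabp7a, 2 in slc6a5 and 2 in vip with galn. Doubled gate limits gave counts called lower of 1 in fabp7a and 2 in gch2. Cells kept in every gate they passed gave Hox CPM of 1482 in and2 (CVT-10216), 888 in dct (DMSO), 2168 and 2336 in fabp7a, 818 and 727 in gch2, 442 and 404 in pnp4a, 5630 and 5541 in slc6a5, 2349 and 2498 in sox10 with phox2bb and 2937 in vip with galn (CVT-10216). Cells kept in every gate they passed gave posterior shares of 60.8% in and2 (CVT-10216), 57.6% in dct (DMSO), 20% and 20.6% in fabp7a, 32.9% and 30.1% in gch2, 19.6% and 18.2% in pnp4a, 45.2% and 43.9% in slc6a5, 1.89% and 5.82% in sox10 with phox2bb and 4.12% and 7.46% in vip with galn. Cells kept in every gate they passed gave posterior log2 ratios of −0.63 in and2, −0.30 in gch2, −0.23 in pnp4a, −0.0641 in slc6a5, 1.71 in sox10 with phox2bb and 0.79 in vip with galn. Cells kept in every gate they passed gave counts of Hox genes called higher of 1 in dct. Cells kept in every gate they passed gave counts called lower of 3 in gch2 and 2 in pnp4a. Removal of the deepest 5% of cells gave Hox CPM of 1533 in and2 (CVT-10216), 2063 and 2233 in fabp7a, 8677 in slc6a5 (CVT-10216), 2376 and 2513 in sox10 with phox2bb and 3517 and 3479 in vip with galn. Removal of the deepest 5% of cells gave posterior shares of 86.3% in and2 (DMSO), 27.3% in fabp7a (CVT-10216), 1.25% and 7.07% in sox10 with phox2bb and 2.98% and 8.29% in vip with galn. Removal of the deepest 5% of cells gave posterior log2 ratios of −0.55 in and2 and 2.57 in sox10 with phox2bb. Removal of the deepest 5% of cells gave counts of Hox genes called higher of 2 in fabp7a, 11 in sox10 with phox2bb and 2 in vip with galn. Removal of the deepest 5% of cells gave counts called lower of 1 in gch2 and 1 in vip with galn. Use of all barcodes gave Hox CPM of 582 in gch2 (DMSO). Thinned cells gave Hox CPM of 2254 and 2026 in and2, 725 in dct (CVT-10216), 1849 and 2090 in fabp7a, 585 in gch2 (DMSO), 389 and 358 in pnp4a, 9894 and 8761 in slc6a5, 2393 in sox10 with phox2bb (CVT-10216) and 3705 and 3069 in vip with galn. Thinned cells gave posterior shares of 85.5% and 81.9% in and2, 66.8% and 50.3% in dct, 24.6% and 26.8% in fabp7a, 27.4% and 33.5% in gch2, 24.2% in pnp4a (DMSO), 1.199% and 6.13% in sox10 with phox2bb and 5.13% and 7.11% in vip with galn. Thinned cells gave posterior log2 ratios of −0.22 in and2, −0.60 in dct, 0.30 in fabp7a, 0.28 in gch2, −0.70 in pnp4a, 2.38 in sox10 with phox2bb and 0.19 in vip with galn. Thinned cells gave counts of Hox genes called higher of 0 in and2, 3 in fabp7a, 2 in sox10 with phox2bb and 0 in vip with galn. Thinned cells gave counts called lower of 0 in and2, 0 in dct, 2 in gch2, 0 in pnp4a and 1 in vip with galn. Cells weighted equally gave Hox CPM of 2207 and 2078 in and2, 909.6 and 719.7 in dct, 2445 and 2567 in fabp7a, 677 and 651 in gch2, 383 and 368 in pnp4a, 11550 and 10760 in slc6a5, 2359 and 2395 in sox10 with phox2bb and 3498 and 3047 in vip with galn. Cells weighted equally gave posterior shares of 85.2% and 81.0% in and2, 60.3% in dct (DMSO), 37.4% and 33.2% in fabp7a, 34.9% and 38.4% in gch2, 17.4% in pnp4a (CVT-10216), 64.1% and 58.5% in slc6a5, 1.45% and 6.15% in sox10 with phox2bb and 4.61% and 7.40% in vip with galn. Cells weighted equally gave posterior log2 ratios of −0.16 in and2, −0.70 in dct, −0.10 in fabp7a, −0.38 in pnp4a and 0.48 in vip with galn. Totals free of ribosomal and mitochondrial genes gave Hox CPM of 2857 and 1928 in and2, 1267 and 934 in dct, 3100 and 3247 in fabp7a, 849.6 and 788 in gch2, 572 and 524 in pnp4a, 12100 and 10800 in slc6a5, 3639 and 3735 in sox10 with phox2bb and 4352 and 4098 in vip with galn. Removal of the 2 cells with most Hox UMIs gave Hox CPM of 1750 and 1331 in and2, 1936 and 2107 in fabp7a and 586 in gch2 (DMSO). Removal of the 2 cells with most Hox UMIs gave posterior shares of 84.9% in and2 (DMSO) and 15.2% in pnp4a (CVT-10216). Removal of the 2 cells with most Hox UMIs gave posterior log2 ratios of −0.53 in and2. Removal of the 2 cells with most Hox UMIs gave counts called lower of 1 in vip with galn. A limit of 1.5-fold gave counts of Hox genes called higher of 1 in dct, 3 in fabp7a and 1 in slc6a5. A limit of 1.5-fold gave counts called lower of 7 in and2, 1 in fabp7a, 1 in gch2 and 1 in vip with galn. Cells without tbx5a gave posterior shares of 71.5% in and2 (CVT-10216). Cells without tbx5a gave posterior log2 ratios of 0.23 in and2. Cells without tbx5a gave counts called lower of 0 in and2. Cells without epcam gave posterior shares of 74.2% and 85.8% in and2. Cells without epcam gave posterior log2 ratios of 0.11 in and2. Cells without epcam gave counts called lower of 2 in and2. Cells without sox10 gave posterior shares of 40.0% and 32.6% in fabp7a. Cells without sox10 gave posterior log2 ratios of 0.39 in fabp7a. Cells without sox10 gave counts of Hox genes called higher of 5 in fabp7a. Cells without fhl2b gave posterior shares of 11.8% and 13.5% in pnp4a. Cells without fhl2b gave posterior log2 ratios of 0.25 in pnp4a. Cells without fhl2b gave counts called lower of 0 in pnp4a. Cells without dbh gave posterior shares of 0.92% and 3.65% in sox10 with phox2bb and 4.96% in vip with galn (CVT-10216). Cells without dbh gave counts of Hox genes called higher of 2 in vip with galn. Cells without elavl3 gave posterior shares of 0.42% and 1.01% in sox10 with phox2bb. Cells without elavl3 gave posterior log2 ratios of 1.21 in sox10 with phox2bb. Cells without elavl3 gave counts of Hox genes called higher of 1 in sox10 with phox2bb. Vipb in place of vip gave posterior shares of 1.08% in vip with galn (DMSO). Vipb in place of vip gave posterior log2 ratios of 2.12 in vip with galn. Vipb in place of vip gave counts of Hox genes called higher of 10 in vip with galn. Posterior as groups 10 to 13 gave posterior shares of 60.6% and 65.1% in and2, 43.1% and 24.5% in dct, 12.2% and 11.1% in fabp7a, 12.9% and 14.8% in gch2, 5.85% and 4.47% in pnp4a, 27.7% and 26.2% in slc6a5, 0.51% and 1.99% in sox10 with phox2bb and 1.02% and 2.54% in vip with galn. Posterior as groups 10 to 13 gave posterior log2 ratios of −1.24 in dct.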

Other observations

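Cells with sox10 and phox2bb that also held dbh, the enzyme that makes noradrenaline and a marker of sympathetic neurons, had a higher posterior share than those without. The 13 DMSO and 23 CVT-10216 cells with at least 2 dbh UMIs had 3.51% (2.67 to 4.51) and 12.5% (11.2 to 13.9) of their Hox UMIs from groups 9 to 13, and cells with none had 0.924% (0.844 to 1.01) and 3.65% (3.46 to 3.86). Cells with dbh were 1.64% of the gate in DMSO and 4.51% in CVT-10216. In them 2 cells held 545 of the 1654 DMSO Hox UMIs, and 2 held 356 of the 2276 in CVT-10216. Their median depths were 44680 and 29280 UMIs, against 22740 and 23300 UMIs in cells without dbh. The part of depth and of doublets in these shares was not tested. The ratio between the libraries was 2.02 (1.62 to 2.46) in cells with dbh and 2.04 (1.89 to 2.20) in cells without, where 17 Hox genes were called higher. The share of all genes called in the cells without dbh was not computed. In the vip with galn gate no DMSO cell held 2 dbh UMIs, and the 8 such CVT-10216 cells had a posterior share of 1.04% (0.555 to 1.77). The gene was picked after the genes of cells rich in posterior UMIs had been seen, so these values are a description.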
